A study of Gallus gallus with 6 samples.

Results

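The H3K4 methylation signal of chicken testis cells labelled as spermatogonial stem cells (SSC) was measured by chromatin immunoprecipitation sequencing, as the level in the immunoprecipitated (IP) library over that in the input library of the same cells. The 2 tables that include SSC listed 9326 distinct regions of the 10677 in all 3 tables, and all 9326 were used, each counted 1 time. The authors had marked 3842 of them (41.2%) as called in SSC. The other 5484 entered a table through a call in the population compared there.

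The cells came from testes of chick embryos of 18d by the stage label and 18.5 days of incubation by the protocol. The tissue was taken apart with collagenase, 30 minutes, followed by trypsin, and the cells were cultured in DMEM with 10% serum. No sorting step was described for them, so other testis cells may be present, and fewer cells of a type cannot be told apart from less mark per cell. The antibody binds histone H3 with 2 or 3 methyl groups on lysine 4, and the input library was made without antibody. There was 1 IP and 1 input library, with no genotype, transgene or treatment contrast. Nothing could therefore be tested between samples, and every interval of a ratio covers counting error only. An interval of a share of regions treats regions as independent, which regions of 1 pair of libraries are not. Overlapping regions enter such shares separately.

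Methylation of lysine 4 on histone H3 is placed on nucleosomes by enzymes that bind active or poised regulatory DNA. The trimethyl form lies mainly at transcription starts, while the dimethyl form spreads further into genes and also lies at enhancers. In the embryonic testis, germ cells sit inside cords of Sertoli cells, with peritubular, fibroblast, Leydig and vessel cells around them, and each of these cell types uses its own regulators.

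The libraries held 19.15 M (megareads) of IP and 23.68 M of input reads, as implied by the deposited values. A called region held a median of 15 IP reads (6 to 396) and 5 input reads (0 to 179). Regions not called held medians of 8 and 5. Counted without overlap, the 3535 separate called regions covered 1223 kb and held 0.381% of the IP reads and 0.0973% of the input reads. The levels are given in RPM, reads per megaread of the library, with 1 read added to each count by the authors, and the ratio is IP RPM over input RPM. No listed region had a ratio at or below 1, since the tables hold only regions above it, so depletion cannot be seen here.

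Called regions were modestly enriched, and most ratios rested on a handful of input reads. Their median ratio was 3.71, with quartiles of 2.94 and 4.95 and a maximum of 24.7. Of the 3842 called regions 1688 (43.9%) reached 4-fold, against 2550 of all 9326 (27.3%). The exact 95% interval of the ratio lay above 1 in 3415 called regions, and above 4 in only 65. Over all listed regions it lay above 1 in 4769 (51.1%). The calls were made on these same SSC reads, so higher ratios in called regions follow in part from the selection. Because so few reads enter each ratio, the values fall on steps: the called regions had 432 distinct ratios, and 213 of them shared the value 3.71.

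**Figure D1:**
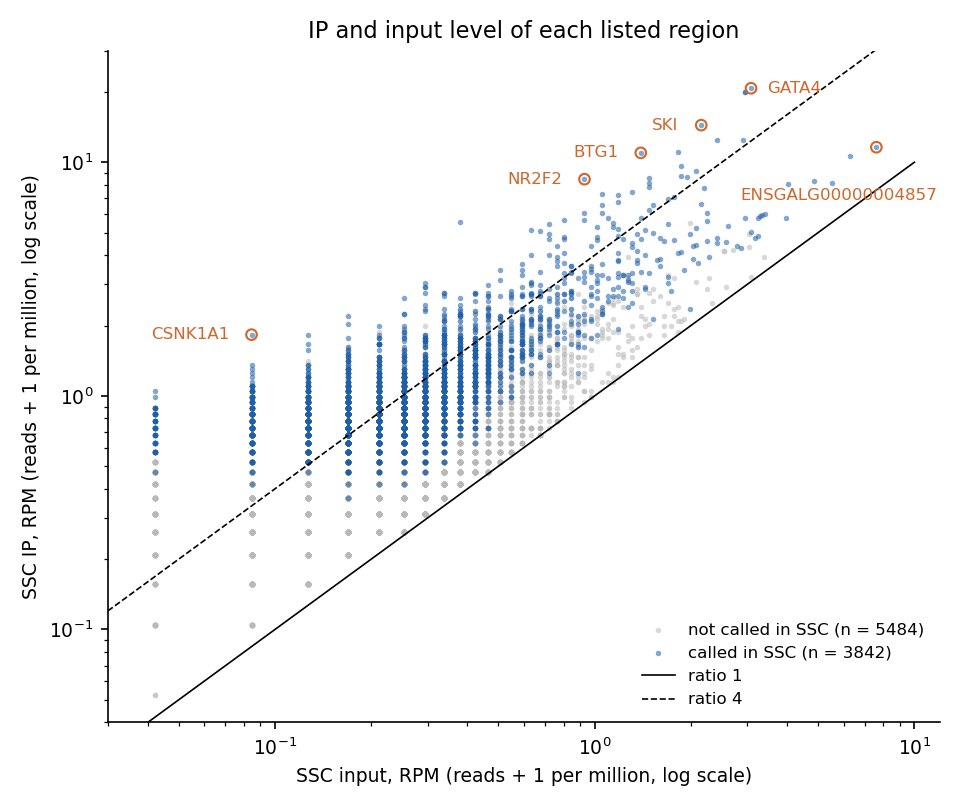
IP level against input level (both in RPM, log axes) of the 9326 listed regions, called in SSC (blue) or not called (grey), with lines at ratios of 1 and 4; 6 regions named in the text are circled. GATA4 has the highest IP level at 20.7 RPM, CSNK1A1 has a high ratio on 1 input read, and ENSGALG00000004857 has a high IP level beside a high input level.

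The region with the highest IP level lay over the start and first intron of GATA4, a transcription factor of Sertoli and other somatic gonad cells. On the build galGal4 this region spans 4532 bp (chromosome 3, 106954504 to 106959036), the widest listed, with coordinates as the files give them. It held 396 IP reads and 72 input reads, or 20.7 and 3.08 RPM. Its ratio was 6.72 (95% interval 5.28 to 8.87), and both limits lie above 4.

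Other regulators with high IP levels stood close behind GATA4. The region of SKI, a corepressor of SMAD proteins in the TGF-beta pathway, lay in the first intron (chromosome 21, 1766442 to 1769996). It held 275 IP and 50 input reads, a ratio of 6.69 (5.02 to 9.39). That of BTG1, which slows cell proliferation (chromosome 1, 44271413 to 44273974), held 209 and 32, a ratio of 7.87 (5.55 to 12.1). The ratios of these genes could not be told apart within counting error, as their intervals overlap that of GATA4.

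The 2nd highest gene by IP level has no symbol in the files or in the gene table used here. This gene, ENSGALG00000008250, held 381 IP and 69 input reads in 1 region of its first intron, a ratio of 6.75 (5.27 to 8.96). NET1, a guanine nucleotide exchange factor, held 166 and 43 reads, and its ratio was 4.69 (3.40 to 6.84). A region of CHD2, a chromatin remodeller, held 238 and 56 reads at 5.18-fold (3.91 to 7.16), with its centre at -13779 bp from the start, where negative values are upstream. The region assigned to the microRNA gga-let-7a-3 held 164 and 45 reads, but its centre lay at -96823 bp, so the name says only which annotated start is closest.

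Of the remaining genes among the 12 highest by IP level, ENSGALG00000015241 held 184 and 43 reads at 5.20-fold (3.78 to 7.56), ENSGALG00000008167 held 174 and 48 at 4.42-fold (3.24 to 6.31), and ENSGALG00000004561 held 238 and 68 at 4.28-fold (3.29 to 5.75).

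High IP levels did not always stand over low input. The region closest to ENSGALG00000004857, at 532026 bp from its start, held 221 IP and 179 input reads and had a ratio of 1.53 (1.25 to 1.87). That of ENSGALG00000003196 held 203 and 148, a ratio of 1.69 (1.37 to 2.11). In all, 43 regions had at least 50 input reads, 30 of these had a ratio below 2, and 10 lay on linkage groups and unplaced contigs. Among the 100 regions with the highest IP RPM, 23 had a ratio below 2 and 50 reached 4-fold. Per kb of region, the 100 highest IP levels included 48 with a ratio below 2, and only 25 of them were also in the first 100 by IP RPM. In called regions IP reads followed width closely (Spearman's rank correlation 0.82 over 3842 regions) and the ratio did not (0.06), a description of regions that share 1 pair of libraries.

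Ranking by ratio brought up mostly other genes, most of them with very few input reads. Of the first 100 regions by ratio, 59 lay within 1 kb of a start, against 32.7% of all listed regions. That share was not counted over the regions with at least 20 IP reads, from which the ranking was drawn. Among the 1473 regions with at least 20 IP reads, the highest ratio was at CSNK1A1, casein kinase 1 alpha, which phosphorylates beta-catenin. Its 568 bp region in the 5′ UTR (chromosome 13, 7790951 to 7791519) was centred 24 bp from the start. It held 34 IP reads and 1 input read, a ratio of 21.6 with an interval of 7.05 to 1709. The width of that interval shows how little 1 input read fixes the ratio.

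The next genes were C21orf91 with 25 IP reads and 1 input read (ratio 16.1, interval 5.06 to 1269) and ATF4, a transcription factor of the stress response, with 24 and 1 (15.5, 4.84 to 1220). FZD1, a Wnt receptor, had 23 and 1 (14.8, 4.62 to 1172), in a region centred 2683 bp downstream. ACTG1, cytoplasmic gamma-actin, had 34 and 2 (14.4, 5.39 to 181), in a region centred at -1115 bp. Also among the first 12 genes were PRPF8, a core protein of the spliceosome, MSANTD3, and LOXL2, which crosslinks collagen. Each had 20 IP reads and 1 input read and a ratio of 13.0 (3.96 to 1025). The region of LOXL2 was centred 11463 bp downstream. All 12 were called, against 41.2% of all listed regions, and 11 had at most 3 input reads. The last 3 places fall in a tie of 8 genes at 20 and 1 reads, and of the 5 tied genes left out, 3 were called while RLIM and ENSGALG00000008504 were not. The other 3 of the 12 were ENSGALG00000014327 (14.2), ENSGALG00000011997 (13.6) and ENSGALG00000021615 (13.2), which have no symbol.

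The order among these 12 genes is not fixed by the reads. The largest lower limit among them was 7.94 and the smallest upper limit 38.6, so every interval overlaps every other. Both of these limits belong to ENSGALG00000004561, with 105 reads in the IP and 8 in the input at 14.6-fold (chromosome 14, 4126588 to 4127948). This region lies inside the 4039 bp region of the same gene given above, with 238 and 68 reads. The wider region was at 4.28-fold (3.29 to 5.75), an interval that does not overlap that of the inner region. Only 4 regions were shared by the first 100 by ratio and the first 100 by IP RPM. The first 100 by ratio had a median of 26 IP and 3 input reads, and the first 100 by IP RPM had 103 and 40.

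**Figure D2:**
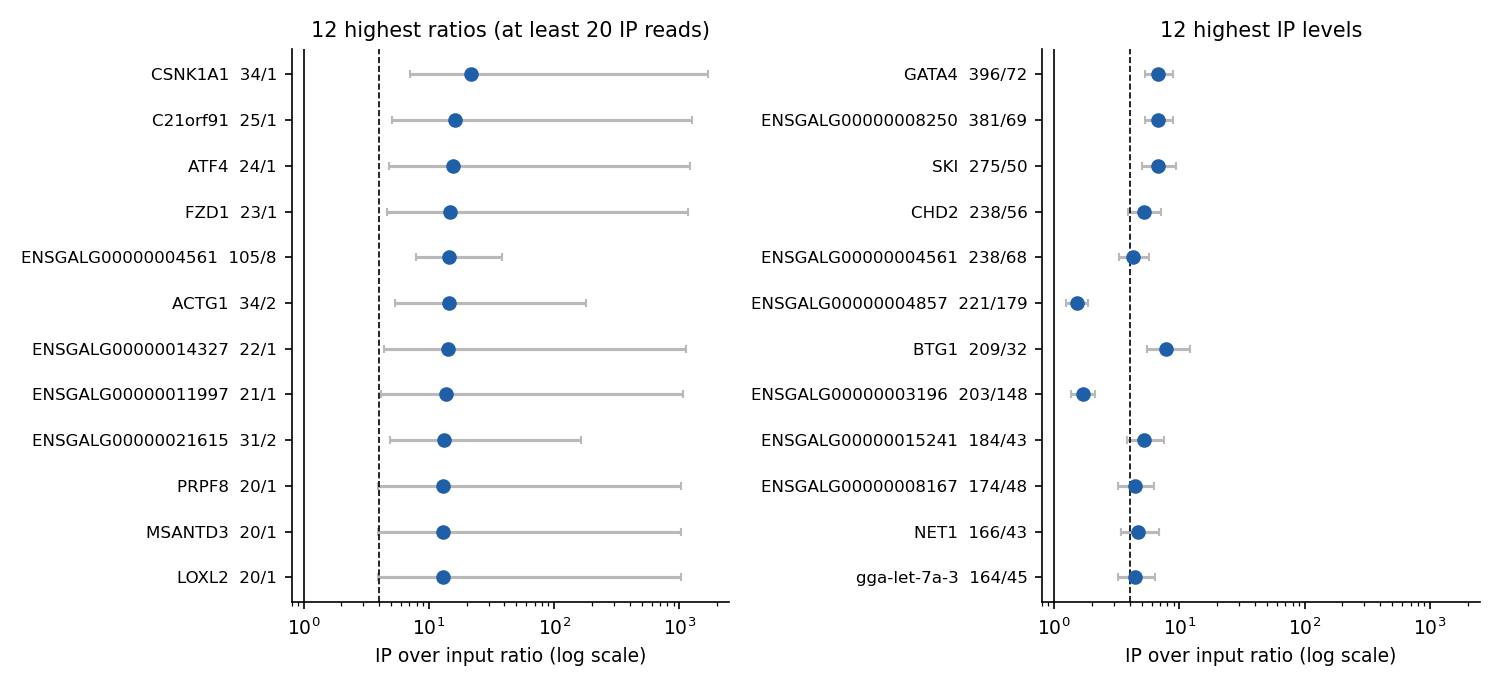
IP over input ratio (log axis) with its exact 95% counting interval for the 12 genes highest by ratio (left) and the 12 highest by IP level (right); numbers beside the names are IP and input reads. The intervals of the left panel reach up to 1709, while that of GATA4 on the right runs from 5.28 to 8.87.

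Ranked by the lower limit of the interval, genes with many reads and genes with a high ratio came together. After ENSGALG00000004561 (7.94) and CSNK1A1 (7.05) came NR2F2, then BTG1 (5.55), ATF4 (5.39), ACTG1 (5.39) and GATA4 (5.28). LHX9 stood a little lower, at 5.08. The regions of ENSGALG00000004561 and CSNK1A1 lie inside wider called ones of the same genes, whose lower limits were 3.29 and 2.58. Of the first 100 regions by this limit, 93 were called and 53 lay within 1 kb of a start. Over all listed regions the shares were 41.2% and 32.7%. They were not counted over the regions with at least 20 IP reads, from which this ranking was drawn.

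A further 48 called regions had no input read at all. The highest was in the first intron of BBX, an HMG-box protein, with 19 IP reads. Its ratio was 7.83 when the input is set to a floor of 3 reads for the library. The lower limit of its interval was 5.77, so the value at the floor is not a lower bound. EDNRA, the endothelin receptor A, had 16 IP reads 207 bp from its start, 6.60-fold at the floor (lower limit 4.77). The muscle coactivator gene MYOCD had 15, 6.18-fold at the floor (lower limit 4.44), in a region centred at -93826 bp.

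Most called regions lay away from starts, and a larger share of those close to a start reached 4-fold. Of the 3842 called regions, 833 were centred within 1 kb of the closest start, 1547 at 1 to 10 kb, 967 at 10 to 50 kb and 495 beyond 50 kb. These were 27.3% of 3047, 52.5% of 2947, 44.9% of 2152 and 41.9% of 1180 listed regions, against 41.2% of all listed. Listed regions near a start were thus called least often. The sentences that follow are about called regions. The share at 4-fold or more was 52.6% (95% interval 49.1 to 56.0) within 1 kb, against 42.2% (39.7 to 44.7) at 1 to 10 kb, 41.0% (37.8 to 44.1) at 10 to 50 kb and 40.6% (36.2 to 45.1) beyond. The median ratio was 4.12 within 1 kb and 3.71 in each of the 3 other classes. From summed reads the classes differed less, at 4.14 within 1 kb, 4.10 at 1 to 10 kb, 3.72 at 10 to 50 kb and 3.92 beyond. The regions near starts were also wider, with a median of 319 bp against 226 bp beyond 50 kb, and held more IP reads, 19 against 14. The part of width in the difference was not tested.

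More called regions lay on the gene side of the start than upstream. Within 1 kb, 627 were centred downstream and 206 upstream. The same split was not counted over all listed regions, so it cannot be read as a lean of the calls. Of the 3047 listed regions within 1 kb, 1583 lay in first introns and 588 were intergenic. Of these, 399 and 184 were called. The first 500 bp downstream held 317 called regions with a median ratio of 4.45, of which 56.8% (51.1 to 62.3) reached 4-fold. From 1 to 2 kb downstream there were 372, at 44.1% (39.0 to 49.3), and beyond 2 kb downstream 1299, at 39.4% (36.7 to 42.1). The first 500 bp upstream held 112 called regions, at 53.6% (43.9 to 63.0).

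**Figure D3:**
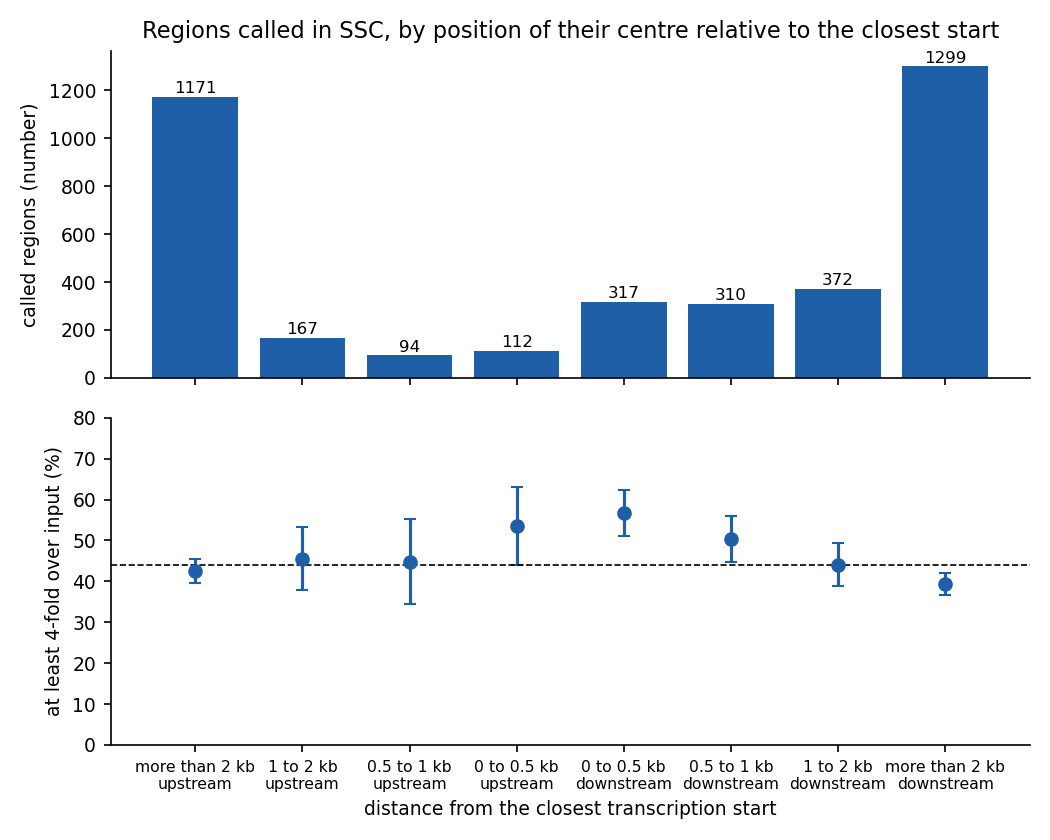
Number of called regions (top) and percent of them at least 4-fold over input with exact 95% intervals (bottom), by signed distance of the region centre from the closest start; the dashed line is the 43.9% of all called regions. The share is highest at 56.8% in the first 0.5 kb downstream and lowest at 39.4% beyond 2 kb downstream.

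By annotation, regions over first exons and 5′ UTRs had the highest median ratios among called regions, on small numbers. The medians were 4.33 over 48 first exons, 4.26 over 72 5′ UTRs and 3.97 over 854 first introns. They were 3.96 over 127 later exons and 3.71 over 957 later introns, 1728 intergenic regions and 56 3′ UTRs alike. In first introns 56.1% (51.1 to 61.1) of the 399 regions within 1 kb of a start reached 4-fold, against 44.4% (39.8 to 49.1) of the 455 farther away.

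By chromosome class, the median ratio was 3.92 over 244 called regions on Z and 3.71 on chromosomes 1 to 5, 6 to 10 and 11 to 28. The shares at 4-fold were 47.1% (40.7 to 53.6) on Z and 43.9% (41.6 to 46.1) on chromosomes 1 to 5, with overlapping intervals. Single chromosomes ranged more widely, on fewer regions. Among those with at least 20 called regions, the share ran from 30.4% (13.2 to 52.9) over 23 regions on chromosome 25 to 62.1% (42.3 to 79.3) over 29 on chromosome 27, intervals that overlap. On chromosome 16, 7 of only 10 called regions reached 4-fold, with a median of 5.44. The 63 called regions on linkage groups and unplaced contigs stood lower, with a median of 3.09 and 25.4% (15.3 to 37.9) at 4-fold, beside a higher median input of 7 reads.

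A minority of called regions stood in runs, and the median gap to the nearest other called region was 42.7 kb. Of the 3535 separate called regions 927 (26.2%) lay within 5 kb of another. Joined over gaps of up to 5 kb they formed 104 runs of at least 3 regions and 13 of at least 5. Regions inside such neighbourhoods held a median of 18 IP reads and the rest 15, and both groups had a median ratio of 3.71. Their shares at 4-fold were 46.2% and 41.1%, and 25.8% against 16.1% lay within 1 kb of a start.

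The longest run covered NR2F2, the orphan nuclear receptor COUP-TFII, which in mouse marks interstitial and Leydig progenitor cells of the testis. NR2F2 had 17 listed regions, more than any other gene, and 16 of them were called, where 41.2% of all listed regions were. Of the called regions of NR2F2, 14 formed 1 run of 16290 bp (chromosome 10, 15322841 to 15339131). They held 497 IP and 120 input reads together, a pooled ratio of 5.12 (4.19 to 6.30). The ratio varied along the run, though most of the intervals overlap. It was 4.59 (2.60 to 9.72) over the 5′ UTR, 10.3 (4.85 to 39.0) in the first intron and 9.11 (upper limit 15.7) in a 1953 bp region of a later intron, which held 161 IP reads and 21 input reads. The regions centred 6796 and 7677 bp downstream were at 2.94 (1.63 to 5.98) and 2.85 (1.48 to 6.43).

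NR2F1, the closest relative of NR2F2, was also in a run. The run of 9 regions on chromosome Z (58201127 to 58211335) held 158 IP and 36 input reads, a pooled ratio of 5.43 (3.76 to 8.03). Some of them were assigned to 2 neighbouring genes without a symbol. Within the run, the region closest to the NR2F1 start held 22 and 2 reads, a ratio of 9.48 (3.34 to 119), and was centred at -1495 bp.

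GATA4 had 7 called regions over 12770 bp, with 566 IP and 117 input reads and a pooled ratio of 5.98 (4.89 to 7.36). Besides the broad region, the region centred at -1366 bp had 42 and 7 reads at 6.65-fold (3.30 to 19.6). That centred at -2618 bp had 32 and 14 reads at 2.72-fold (1.47 to 5.73), whose interval overlaps that of the broad region. Downstream, at 9343 bp in the first intron, a further region had 18 and 3 reads at 5.87-fold (2.17 to 39.3).

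BRK-3 is a file symbol that the RefSeq gene table lists as a synonym of BMPR2, the type II receptor for bone morphogenetic proteins. BRK-3 had 11 regions, all called, against 41.2% of all listed regions. Its broad first intron region had 103 IP and 16 input reads, a ratio of 7.56 (4.68 to 14.4). The regions on either side of it had ratios of 2.25 (1.04 to 5.66) at -1474 bp and 2.20 (0.92 to 6.31) at 2361 bp, and both intervals overlap that of the broad region.

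Further runs covered genes of several kinds. BTG1 had 5 regions with 424 IP and 82 input reads, pooled at 6.39 (5.04 to 8.20). NRP1, a coreceptor for semaphorins and VEGF, had 5 with 206 and 42, pooled at 6.07 (4.33 to 8.67). The 4 regions of PCDH18, a protocadherin, held 108 and 17 and were pooled at 7.86 (4.69 to 14.0), each at least 4-fold. EBF1, a transcription factor of B cells and mesenchyme, had 6, pooled at 4.76 (3.50 to 6.57). GATM, which makes the precursor of creatine, had 6, pooled at 3.77 (2.92 to 4.91), and the first of them was centred 49381 bp from its start. ANKRD50 had 12 regions spread from -111745 to 340535 bp, of which 8 were called. ENSGALG00000011747, which has no symbol, had 10 regions, all called, with ratios of 3.08 to 11.7. Of all listed regions 41.2% were called.

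**Figure D4:**
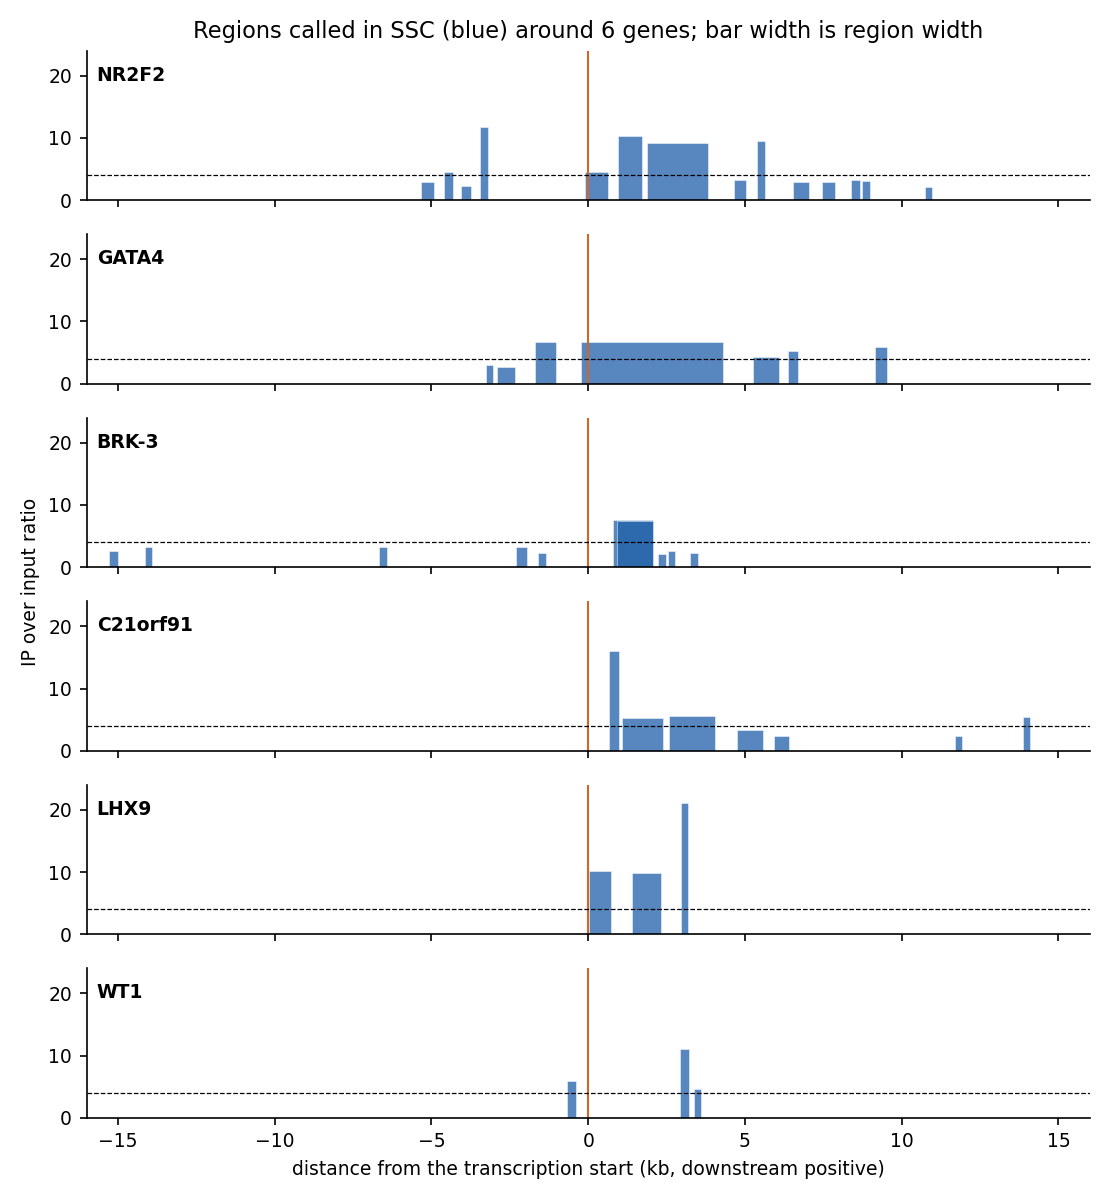
IP over input ratio of the called regions within 16 kb of the start of 6 genes, drawn at their distance from the start in kb with bars as wide as the regions; the dashed line marks 4-fold and overlapping bars come from both tables. NR2F2 and GATA4 carry broad blocks downstream of the start, and the tallest bar, at LHX9, stands on 16 IP reads and no input read.

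Most of the listed genes of gonad formation and Sertoli cells were called. The gene lists were set with earlier results of these data known, so their counts are a description only. Each gene was described by the region nearest its start. Over all 3533 genes with a symbol this region was called for 1242 (35.2%), reached 4-fold for 956 (27.1%), had a lower limit above 1 for 1775 (50.2%) and had a median ratio of 2.83. Where that region lay within 1 kb of the start, 486 of 1606 genes (30.3%) reached 4-fold. Of 29 genes on the gonad and Sertoli list 13 had a listed region, 11 were called, 8 reached 4-fold, 12 had a lower limit above 1, and the median was 4.59. A gene with no listed region is not analysed here.

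LHX9, a LIM homeobox factor needed for the gonad to form in mouse, was the highest of the list. In its first exon (chromosome 8, 2278668 to 2279362) a region had 57 reads in the IP and 6 in the input, a ratio of 10.2 (5.08 to 33.3). A region of its first intron held 55 and 6, a ratio of 9.89 (4.89 to 32.2). A later exon held 16 and 0, 6.60-fold at the input floor (lower limit 4.77). All 3 regions of LHX9 stood above 4 at their lower limit.

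GATA4 followed at 6.65 and WT1, a zinc finger factor of the early gonad and Sertoli cells, at 5.87 (2.17 to 39.3), from 18 IP and 3 input reads at -538 bp. A region 3069 bp inside WT1 had 17 and 1 reads, a ratio of 11.1 (3.29 to 879). NR5A1, or SF-1, which drives steroidogenic and gonadal genes, had 1 region, 10065 bp downstream in a later intron. It held 17 and 3 reads, a ratio of 5.56 (2.03 to 37.3).

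INHBB, the beta B subunit of activin and inhibin, had a region over its start with 57 and 14 reads, a ratio of 4.78 (2.77 to 9.78). The lowest of the list was DMRT1, the Z-linked gene needed for testis formation in chicken, at 2.68 (0.97 to 10.8) from 12 and 5 reads, 14914 bp downstream in a later intron. The interval of DMRT1 includes 1. SOX9 and AMH, also Sertoli genes, are not analysed here.

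Peritubular, fibroblast and matrix genes were also often called: 14 of 34 were listed, 11 were called, 7 reached 4-fold, and the median was 4.17. Over all genes 35.2% were called and 27.1% reached 4-fold. Only 2 of the 14 regions lay within 1 kb of a start, against 1606 of 3533 over all genes. Of all listed regions, 27.3% within 1 kb were called, against 41.9% beyond 50 kb. The part of distance in the number called was not tested. The highest of the list was COL12A1, a fibril-associated collagen, with 15 IP reads and no input read, 6.18-fold at the input floor (lower limit 4.44). Its region lay 77542 bp downstream in a later intron. LAMB1, a laminin chain of basement membranes, had 14 and 1 reads (9.27, 2.63 to 732). LUM, the proteoglycan lumican, had 13 and 1 (8.66, 2.41 to 683). The lowest, LAMC1, another laminin chain, had 7 and 8 (1.10, 0.33 to 3.41) and was not called. COL1A2, a chain of type I collagen, had 13 and 4 reads 181 bp from its start (3.46, 1.24 to 16.9).

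Of the Leydig and steroid genes only NR2F1, NR2F2 and PDGFRA were listed, of 20, and no steroid enzyme among them. All were called, against 35.2% of all genes, and their median was 4.59 against 2.83. NR2F2 and PDGFRA stand on other lists too. The ratio of NR2F2 is the median of both this list and the gonad and Sertoli list. PDGFRA, a growth factor receptor of mesenchyme, had 60 IP and 20 input reads at -4141 bp, a ratio of 3.59 (2.20 to 6.50).

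**Figure D5:**
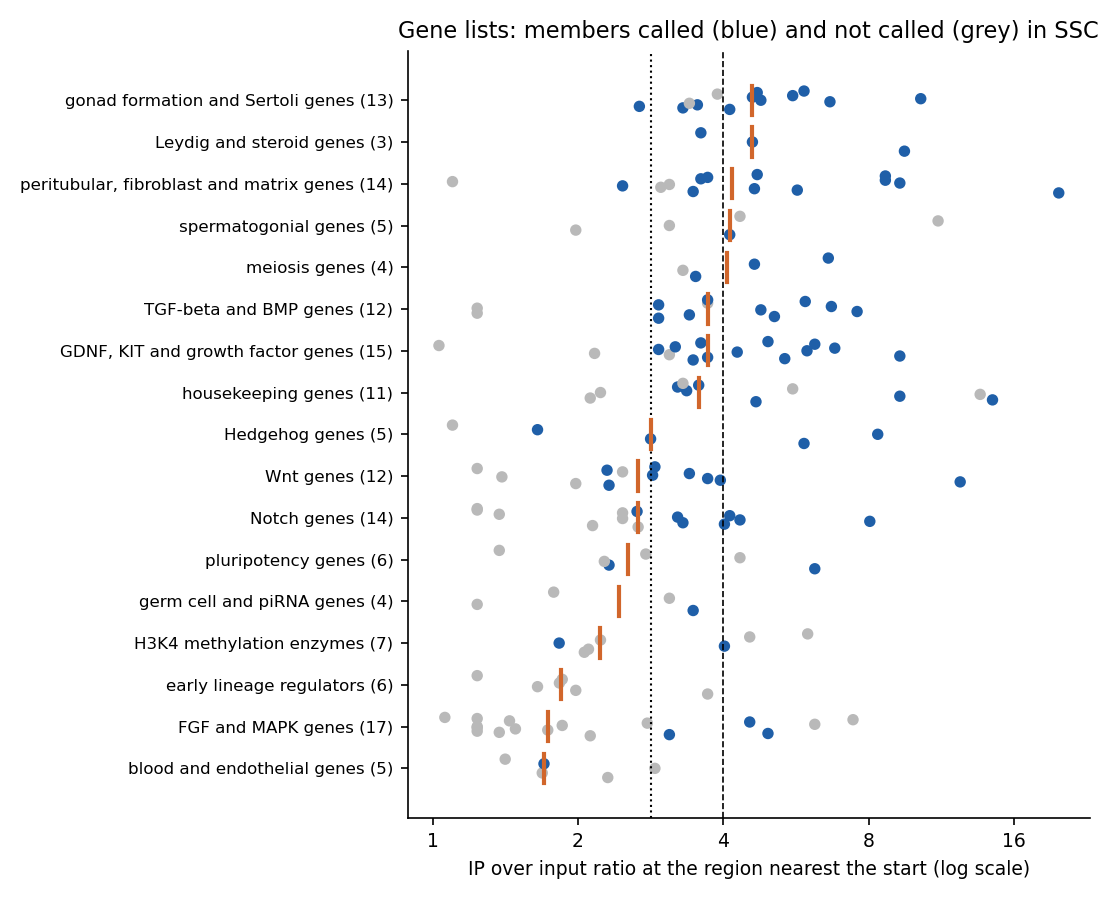
IP over input ratio (log axis) at the region nearest the start for the members of each list with at least 3 listed, called in SSC (blue) or not (grey); orange bars are list medians, the dotted line is the median of all genes, 2.83, and the dashed line is 4-fold. Numbers in brackets are listed members. The gonad and Leydig lists have the highest medians, both 4.59, which is the value of NR2F2, a member of both.

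The cell type markers differed in how many had a listed region. Of 8 germ cell markers (DDX4, DAZL, PIWIL1, TDRD1, MAEL, DND1, NANOS3 and SALL4) 0 had a listed region, and of 8 spermatogonial markers only ITGB1 had one. Of 10 Sertoli and supporting cell markers 7 were listed, with 6 called and 5 at 4-fold. Of 10 peritubular and fibroblast markers 5 were listed, all called and 2 at 4-fold. Over all listed genes with a symbol, 35.2% were called and 27.1% reached 4-fold. Of 6 steroidogenic markers 0 were listed, and of 7 endothelial and blood markers 1, TAL1, at 1.70 (0.61 to 5.47). The share of all annotated genes with a listed region was not counted, so these listed numbers cannot be called low or high. The identity of the cells cannot be read from them. A gene absent from the tables may carry the mark in SSC and fail the limits of the other population compared. The label SSC is therefore used below as a name only.

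ITGB1, the integrin beta 1 chain found on spermatogonia and on most adherent cells, had 8 IP reads and no input read in its 5′ UTR. Its ratio was 3.30 at the input floor, with a lower limit of 2.11. It was not called. The spermatogonial list had 5 listed genes of 32, 1 of them called and 3 at 4-fold, where all genes stood at 35.2% and 27.1%. ITGB1 is among the 3 only through the added read, as its value at the floor is below 4. The list median was 4.12, or 3.30 with the empty input at the floor. The called gene was BCL6, a transcriptional repressor, with 19 and 5 reads (4.12, 1.70 to 16.1). LIN28B, an inhibitor of let-7 maturation, had 6 and 1 (4.33, 0.90 to 341). EOMES, a T-box factor, was lowest with 7 and 4 (1.98, 0.55 to 10.1).

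The germ cell and piRNA list had 4 listed genes of 25, 1 of them called and 0 at 4-fold, with a median of 2.44. Among all genes, 35.2% were called and 27.1% reached 4-fold. The called gene was CXCR4, the chemokine receptor of migrating germ cells, with 13 and 4 reads at -47214 bp (3.46, 1.24 to 16.9). TDRD7, a tudor domain protein of germ granules, had 4 and 1 (3.09, 0.49 to 244). TFAP2C, a factor of germ cell specification, had 35 and 24 (1.78, 1.04 to 3.17), and TDRD15 was lowest at 1.24 with 3 reads in each library.

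Meiosis genes had 4 listed of 27, 3 of them called and 2 at 4-fold, with a median of 4.07. The shares over all genes were 35.2% and 27.1%, but 4 genes are too few to set against them. Only 1 of the 4 regions lay within 1 kb of a start. TEX11, which promotes recombination, had 15 and 2 reads (6.60, 2.16 to 83.6), 4613 bp into the gene. SYCP3, of the synaptonemal complex, had 14 and 3 at -4999 bp (4.64, 1.61 to 31.3). DMC1, a meiotic recombinase, had 16 and 5 at -1195 bp (3.50, 1.39 to 13.8), and SYCP1 had 7 and 2 (3.30, 0.82 to 42.7). None of the 4 regions was wider than 214 bp.

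In the TGF-beta and BMP list, 12 of 51 genes were listed, 9 were called and 5 reached 4-fold, with a median of 3.71. By comparison, 35.2% of all genes were called and 27.1% reached 4-fold. Only 3 of the 12 regions lay within 1 kb of a start, and the part of distance was not tested. After BRK-3 and SKI stood SMAD6, an inhibitory SMAD, with 42 and 8 reads (5.91, lower limit 3.01). The ligand BMP5 had 32 and 7 (5.10, 2.45 to 15.2). The receptors TGFBR2 and BMPR1A were at 3.71 (1.20 to 25.3) and 3.40 (1.06 to 23.3). The signal-transducing SMAD1 and the receptor ACVR2A each had 18 and 7 reads and stood at 2.94 (1.27 to 9.01). SMAD5, another signal-transducing member, had 5 and 1 (3.71, 0.69 to 292) and was not called. The lowest were the receptor BMPR1B at 1.24 (0.33 to 4.63) and LEFTY2, an inhibitor of Nodal, at 1.24 (0.28 to 5.37), neither of them called.

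GDNF, KIT and other growth factor genes had 15 listed of 33, with 12 called, 7 at 4-fold and a median of 3.71. The shares over all genes were 35.2% called and 27.1% at 4-fold. Only 5 of the 15 regions lay within 1 kb of a start, against 1606 of 3533 over all genes. The part of distance in the number called was not tested. IGFBP5, which binds insulin-like growth factors, had 14 and 1 reads (9.27, 2.63 to 732). The ligand PDGF-A had 65 and 11 over its start (6.80, 3.83 to 15.4). The ligand PDGFD had 14 and 2 at -127075 bp (6.18, 1.99 to 78.5), and PDGFC was lowest with 4 and 5 (1.03, lower limit 0.20). GDNF, the ligand that maintains spermatogonial stem cells in mouse, had 11 and 3 at -7495 bp (3.71, 1.20 to 25.3). KITLG, the ligand of KIT, had 6 and 3 in the region nearest its start (2.16, 0.53 to 15.3), and 22 and 2 at 561 bp in its first exon (9.48, 3.34 to 119). KIT and GFRA1 are not analysed here.

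Other signalling lists had lower median ratios. Over all genes 35.2% were called and 27.1% reached 4-fold, with a median of 2.83. The Hedgehog, Wnt and Notch lists exceeded this share called, and the FGF and MAPK list did not. Within 1 kb of a start lay 2 of 5 Hedgehog, 3 of 12 Wnt, 4 of 14 Notch and 4 of 17 FGF and MAPK regions. Over all genes this held for 1606 of 3533, and the part of distance in the number called was not tested. Hedgehog genes had 5 listed, 4 called, 2 at 4-fold and a median of 2.83, led by the receptor PTCH1 at 8.35 (3.28 to 55.3) with 26 and 3 reads. The coreceptor BOC was at 5.87 (2.17 to 39.3) and the transcription factor GLI2 at 2.83 (1.13 to 9.72). SUFU, which restrains GLI factors, was lowest at 1.10 (0.51 to 2.32) with 15 and 17 reads. Wnt genes had 12 listed, 8 called, 1 at 4-fold and a median of 2.66. That 1 gene was FZD1, with 19 and 1 reads at its nearest region (12.4, 3.73 to 976). The Wnt inhibitors NKD1 and SFRP2 were at 3.94 (2.28 to 7.90) and 3.71 (1.49 to 14.6), and the ligand WNT5B, with 4 reads in each library, was among the lowest at 1.24.

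Notch genes had 14 listed, 7 called, 4 at 4-fold and a median of 2.66, from the coactivator MAML1 at 8.04 (2.20 to 634) down to 1.24 for RFNG and RBPJ. MAML3, a relative of MAML1, was at 4.33 (1.47 to 29.3) and the receptor NOTCH2 at 4.12 (upper limit 11.3). FGF and MAPK genes had 17 listed, 3 called, 4 at 4-fold and a median of 1.73, with DUSP6, a MAPK phosphatase, at 4.95 (1.75 to 33.3). The adaptor GRB2 was at 6.18 (1.99 to 78.5) and was not called. SPRED1, an inhibitor of RAS signalling, had 5 IP reads and no input read, 2.06-fold at the input floor (lower limit 1.13). Its place among the 4 therefore depends on the added read. SPRY2, which restrains receptor tyrosine kinases, was lowest at 1.06 (0.25 to 4.05).

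The remaining lists covered general and early functions. For comparison, 35.2% of all genes were called, 27.1% reached 4-fold and the median was 2.83. Housekeeping genes had 11 listed of 24, 6 called, 5 at 4-fold and a median of 3.56. The highest after ACTG1 was HSP90AB1, a heat shock chaperone, with 10 IP reads and no input read 3 bp from its start. Its ratio was 4.12 at the input floor, with a lower limit of 2.77. ACTB, cytoplasmic beta-actin, had 33 and 8 reads in its first intron (4.67, 2.31 to 12.8). HPRT1, of purine salvage, had 14 and 1 (9.27, 2.63 to 732), and EEF1A1 was lowest at 2.12 (0.77 to 7.47). Writers and erasers of H3K4 methylation had 7 listed, 2 called, 3 at 4-fold and a median of 2.23. They ran from WDR82 at 5.98 (2.64 to 23.0) down to SETD1B at 1.83 (1.05 to 3.34). Between them stood WDR5 at 4.53 (1.32 to 58.0) and the demethylase KDM5A at 4.02 (1.33 to 27.3).

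Pluripotency genes had 6 listed, 2 called, 2 at 4-fold and a median of 2.54, where all genes stood at 35.2% called and 27.1% at 4-fold. MYCN had 104 and 46 reads (2.76, 1.96 to 4.05) over its start. KLF2 was at 6.18 (1.99 to 78.5), and TFCP2L1 was lowest at 1.37 (0.48 to 4.14). Early lineage regulators had 6 listed, 0 called, 0 at 4-fold and a median of 1.84, from the homeobox gene DLX5 at 3.71 (0.69 to 292), with 5 and 1 reads, to TFAP2A at 1.24 with 1 read in each library. T, or brachyury, stood between them at 1.85 (0.40 to 13.3). Blood and endothelial genes had 5 listed, 1 called, 0 at 4-fold and a median of 1.70, with RUNX1 highest at 2.89 (0.66 to 37.6) from 6 and 2 reads, ETS1 at 2.30 (1.36 to 4.20) and the endothelial receptor TIE1 lowest at 1.41 (0.42 to 5.20). HOXB9 and HOXB1 were the listed HOX genes, both called, at 6.80 (1.76 to 537) and 4.20 (1.60 to 20.3). No retinoic acid gene of 19 was listed.

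The 2 tables drew the borders of some regions differently, which changed the ratio of the same gene. In 307 pairs a called region lay inside a wider called one, and the inner region had the higher ratio in 192 and the lower in 107. The medians were 4.53 for the inner and 4.06 for the outer regions, and 80 pairs fell on either side of 4-fold. The 568 bp region of CSNK1A1 lay inside one of 2557 bp with 147 IP and 51 input reads, a ratio of 3.52 (2.58 to 5.00). The reads outside the inner region alone, 113 and 50, had a ratio of 2.76. For ATF4 the inner region was at 15.5 and the outer, with 41 and 3 reads, at 13.0 (5.39 to 85.3).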

How the data were processed

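Per the submitters' processing notes, reads were handled with CASAVA 1.8, FastQC, BWA and MACS2 on galGal4; other versions and settings are not given in the sources used here. The authors deposited read counts per region, RPM and the IP over input fold (ratio) for each population, with their mark of called regions; the authors' deposited log2 values compare populations by the ratio of their folds and were not used. RPM as deposited by the authors equals the count plus 1 over a library total, which gave totals of 19.15 and 23.68 M reads (megareads). Repeats of a region per gene (152 and 55) and 1337 regions in both tables, with the same SSC counts, were collapsed. Ratios were recomputed with Python 3.11.15, and exact 95% intervals came from the binomial split of the 2 raw counts, without the added read, so they are not centred on the ratio. PCR reads are not independent molecules, so intervals of ratios and floors cover counting error only. Intervals of shares came from the binomial count of regions and treat the regions as independent, overlapping ones included. A floor of 3 reads replaced an input of 0.

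Distances run from the region centre to the closest start in the authors' annotation; the base coordinates count from is not given in the sources used here. Of 3533 file symbols 3194 are current RefSeq symbols and 201 synonyms of 1 gene. Members, gene lists and naming rule were all set with earlier results of these data known. The rule took the 12 highest genes by ratio and by IP level, the 5 with most regions, the 3 highest and the lowest of each list, and 20 genes always; genes added after their values were seen are RLIM, ENSGALG00000008504, BBX, EDNRA, MYOCD, NRP1, PCDH18, EBF1, GATM and members in the middle of a list. The procedure was tested on simulated data. Alternatives were other added reads, thresholds, tables, read minimums and regions per gene.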

Additional observations from a re-analysis of the deposited data

How the results depend on the processing

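With 1 IP and 1 input library, leaving out a library gives no value, and no call between conditions was made. The IP and input libraries form only 1 pair, so no paired analysis over replicates was possible. The count of regions at 4-fold or more (2550) was 421 with 5 reads added, 68 where the lower limit had to reach 4, 6517 at 2-fold, 447 at 8-fold, 925 with at least 20 reads in both libraries together, 1688 among called regions and 1220 in the table against PGC alone. It stayed within 1.5 times with nothing added, in the table against ESC and with overlapping regions counted 1 time. Over all regions the median ratio was 3.09 within 1 kb of a start and 2.32 beyond 50 kb. It became 2.27 and 1.85 with 5 reads added, 4.12 and 3.71 among called regions, and 3.25 and 2.61 from summed reads, and beyond 50 kb 3.09 with at least 20 reads, where the classes were 3.18 and 3.09. The medians for 5′ UTRs, intergenic regions, chromosome Z and chromosomes 1 to 5 were 3.40, 2.65, 3.25 and 2.78, became 2.35, 2.06, 2.47 and 2.12 with 5 reads added, and 4.26, 3.71, 3.92 and 3.71 among called regions. Of the first 100 regions by ratio 62 were kept when ranked by the lower limit and 64 with 5 reads added; of the first 100 by IP RPM 25 were kept per kb. Of 17 lists 8 had a median above that of all genes, against 5 of 11 with regions within 1 kb alone. The cause was not tested. No ratio of a list member left its interval with 5 reads added or with nothing added, over 147 genes each. With nothing added this was fixed in advance for genes with an input read, as the interval is built on that ratio. Many intervals are also wide, so the result does not show that the ratios are stable. A gap of 2 kb, chosen after seeing the data, gave 71 runs in place of 104. Depth limits most single ratios.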

Other observations

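Genes grouped by the function terms in the authors' annotation differed in how often the region near their start was called. Over 2534 genes with a region within 1 kb of the start, 22.1% were called in SSC and 31.5% reached 4-fold. The highest share called was 34.9%, over 43 genes of ribonucleoprotein complexes, of which 25.6% reached 4-fold. Of 46 genes with sequence-specific transcription factor activity 34.8% were called, and 41.3% reached 4-fold. Of 62 structural constituents of the ribosome 33.9% were called, with a median of 19 IP reads against 12 over all these genes, and 33.9% reached 4-fold. Of 44 focal adhesion genes 31.8% were called and 36.4% reached 4-fold. At the other end stood 38 genes of nuclear specks with 7.89% called and 18.4% at 4-fold. Of 30 cytoskeleton genes 6.67% were called, while 30% reached 4-fold, close to the share of all these genes. These terms were picked among the extremes of 59 after their values were seen, and no test was made.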
